A study of Mus musculus with 6 samples.

Results

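The genes described here are 10 genes of lipid uptake and storage, taken out of the 31055 features measured in each library of a single-cell RNA sequencing series on mouse mammary tissue. They are Cd36, Fabp4, Fabp5, Lpl, Gpihbp1, Plin2, Apoe, Pparg, Fasn and Scd1, and they were followed through endothelial-like, fibroblast-like, macrophage-like and epithelial-like cells. The set was put together with results of these libraries in view, and Cd36 was part of it because its level was lower in Tumor in 3 cell types. The Tumor comparisons of Cd36 are therefore given as values with no test, while its comparison of DCIS with Prepuberty and every comparison of the other members were tested.

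Cells take up fat from blood in a series of steps. Gpihbp1 holds lipoprotein lipase, the product of Lpl, on the lumen of capillaries, where the lipase frees fatty acids from triglyceride-rich particles. Cd36 carries fatty acids and oxidised lipoproteins across the plasma membrane, and the small proteins Fabp4 and Fabp5 bind fatty acids inside the cell. Plin2 coats lipid droplets, Apoe carries cholesterol and other lipids out of cells and on lipoproteins, Fasn builds fatty acids from acetyl groups, and Scd1 puts a double bond into them. Pparg is a nuclear receptor that switches on several genes of this set, and in a mammary gland the cells best known for storing fat are the adipocytes of the fat pad, whose capillaries and macrophages also handle lipid.

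The libraries came from female C3TAG mice, which carry the large T antigen of SV40 under the control of a C3(1) promoter and develop mammary cancer. The study's methods give FVB/NJ as the background strain. Prepuberty is the whole gland at 5 weeks, DCIS (ductal carcinoma in situ) the whole gland at 14 weeks, and Tumor a tumor taken at more than 18 weeks, and every group, the youngest included, carries the transgene, so no group is free of T antigen. Each group holds 2 libraries, and the labels do not say whether the 2 came from separate animals, so the p-values below measure the spread between libraries, which may be technical. The groups also differ in age and in tissue (gland with its fat pad against tumor), and the study's methods name another dissociation kit for tumors than for glands while the labels give the same protocol for both, so tumor state, age, tissue and dissociation cannot be told apart.

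After filtering, 21537 cells were kept, 2548 to 4306 in a library, with a median of 6541 to 13631.5 unique molecular identifiers (UMIs, each standing for 1 captured RNA molecule) per cell. No pair of libraries shared more than 39 cell barcodes. Endothelial-like cells numbered 702 and 668 in Prepuberty 1 and 2, 424 and 353 in DCIS 1 and 2, and 76 and 34 in Tumor 1 and 2, fibroblast-like cells 294 to 2098, macrophage-like cells 83 to 425 and epithelial-like cells 145 to 2644. The 8 endothelial markers summed to between 4167 and 6271 CPM (UMIs of a gene, scaled to the usual counts per 1e6 UMIs of that class in that library) in endothelial-like cells and to at most 71.7 CPM in the other 3 classes. The lists for fibroblasts, macrophages and epithelium were likewise each highest in the class of that name. Adipocytes formed no class, but 6 adipocyte markers (Adipoq, Plin1, Cidec, Lep, Retn and Cfd) summed to 228, 1217, 38.3 and 324 CPM in the endothelial-like cells of Prepuberty 1, Prepuberty 2, DCIS 1 and DCIS 2, and all 6 were at 0 in both Tumor libraries. The endothelial results are therefore given with and without the cells that held such a UMI.

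Promoter sequences, read from RefSeq on GRCm38.p6, were found for 5 of the 10 genes, Plin2, Cd36, Pparg, Apoe and Fasn, in 9 windows of 250 bases that end at a transcription start. They are shown because Pparg binds DNA as a nuclear receptor at pairs of the half-site AGGTCA. The half-site stood on either strand (AGGTCA or TGACCT) in 4 of the 9 windows, those of Plin2 and Cd36 and 2 of Pparg, against 14.0% of 32851 windows of the same length over all genes. The windows of Cd36, Plin2 and Pparg are printed 5′ to 3′ on the strand of the gene with the half-site in capitals, at chr5:17835897-17836146 (minus strand), chr4:86670060-86670309 (minus strand) and chr6:115362099-115362348 (plus strand).
Cd36: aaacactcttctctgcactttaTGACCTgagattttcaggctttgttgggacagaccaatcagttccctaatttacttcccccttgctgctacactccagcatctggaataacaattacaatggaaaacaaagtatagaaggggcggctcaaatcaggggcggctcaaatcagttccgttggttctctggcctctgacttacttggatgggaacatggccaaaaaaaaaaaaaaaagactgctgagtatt
Plin2: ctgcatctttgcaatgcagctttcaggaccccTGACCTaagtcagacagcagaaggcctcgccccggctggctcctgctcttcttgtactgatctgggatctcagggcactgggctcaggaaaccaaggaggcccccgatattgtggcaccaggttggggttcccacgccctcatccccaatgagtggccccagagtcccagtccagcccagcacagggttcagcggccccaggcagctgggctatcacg
Pparg: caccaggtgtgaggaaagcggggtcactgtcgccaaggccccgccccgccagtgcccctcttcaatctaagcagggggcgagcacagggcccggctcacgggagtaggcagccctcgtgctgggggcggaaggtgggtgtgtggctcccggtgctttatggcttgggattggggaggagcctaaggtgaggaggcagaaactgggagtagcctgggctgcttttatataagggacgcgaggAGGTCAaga
A single half-site is a match of letters and not a known binding site. The E-box CACGTG was in none of the 9 windows and in 6.02% of all windows, CCAAT (or ATTGG) was in 5 of 9 and in 33.9% of all, and TATAAA (or TTTATA) was in 2 of 9 and in 12.4% of all.

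In the GRCm38 annotation of GENCODE M21, Cd36 spans chr5:17781690-17888801 on the minus strand, Plin2 spans chr4:86648386-86670060 on the minus strand and Pparg spans chr6:115360951-115490399 on the plus strand. Fabp5 at chr3:10012548-10016607 and Fabp4 at chr3:10204088-10208576 lie close to each other on 1 chromosome. Lpl is at chr8:68880491-68907448, Gpihbp1 at chr15:75596628-75599481, Apoe at chr7:19696109-19699188, Fasn at chr11:120805846-120824547 and Scd1 at chr19:44394455-44407879. Fabp5 has processed pseudogene copies and Scd1 has close paralogs, so their UMIs are less certain than those of the other members.

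Cd36, the fatty acid carrier that led to this choice of genes, was an endothelial and macrophage transcript in the glands. In endothelial-like cells it stood at 631 and 575 CPM in Prepuberty 1 and 2, 875 and 936 CPM in DCIS 1 and 2, and 162 and 319.5 CPM in Tumor 1 and 2. Both Tumor libraries were below all 4 gland libraries. DCIS was above Prepuberty in level, but the test between them was not passed (log2 fold change 0.89, SE 0.32, edgeR adjusted p = 0.368). In macrophage-like cells it was 388 and 363 CPM in Prepuberty, 125 and 179.9 CPM in DCIS and 20.2 and 21.7 CPM in Tumor, so that the 3 states did not overlap, and DCIS against Prepuberty did not pass either (-1.18, SE 0.37, edgeR adjusted p = 0.298). Pericyte-like or smooth-muscle-like cells held 61.3 and 40.9 CPM in Prepuberty and 79.7 and 109 CPM in DCIS, with no UMI in either Tumor library, which held 23 and 5 such cells. The remaining classes were far lower: fibroblast-like cells had 25.02, 4.06, 10.2 and 5.59 CPM in the glands and 0.288 and 0.574 CPM in Tumor (1 and 3 UMIs), and epithelial-like cells had 3.42, 8.87, 2.77 and 2.73 CPM in the glands and 0.119 and 0.192 CPM in Tumor (5 UMIs each). In neither did Cd36 pass between DCIS and Prepuberty (-0.69 and -0.96, edgeR adjusted p = 0.760 and 0.530).

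Ordered by level, Prepuberty ran from endothelial-like to macrophage-like to pericyte-like cells with no overlap between neighbours. Below these, fibroblast-like, B-cell-like (27.4 and 3.48 CPM, from 1 UMI each), epithelial-like, T-cell-like, Schwann-like (2.55 and 12.96 CPM) and myoepithelial-like cells overlapped with one another. In DCIS the order was the same, with the B-cell-like class at 10.3 and 63.5 CPM. In Tumor, endothelial-like cells stayed highest, the B-cell-like class (44.2 and 29.3 CPM, 12 and 1 UMIs), whose cluster also held dendritic cell genes, lay above macrophage-like cells, and all other classes were at 2.33 CPM or below. On the log2 scale of the fitted values, Tumor was below DCIS by -2.36 in endothelial-like, -4.82 in fibroblast-like, -3.43 in macrophage-like and -4.51 in epithelial-like cells. These are the values that led to the choice of Cd36 and support nothing further.

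Free RNA in a droplet adds a few UMIs of an abundant transcript to every cell, so the share of cells with a UMI was also read after thinning every cell to 2000 UMIs, with T-cell-like cells, which should lack Cd36, beside it. Of endothelial-like cells, 51.4% to 62.3% held a Cd36 UMI in the 4 gland libraries (74.9% to 79.7% before thinning), 9.46% in Tumor 1 (95% Wilson interval 4.66% to 18.3%) and 14.3% in Tumor 2 (4.98% to 34.6%). Macrophage-like cells went from 38.5% and 27.5% in Prepuberty to 3.29% and 5.26% in Tumor. Over the libraries of Prepuberty, DCIS and Tumor in turn, the share was 0.592%, 0.703% and 0.0256% of epithelial-like cells and 2.24%, 1.13% and 0 of 566 of fibroblast-like cells. T-cell-like cells were shallow (a median of 1221 to 2526 UMIs in a library, beside 4077 to 9728 UMIs for endothelial-like and 7955 to 17080 UMIs for epithelial-like cells), and they held 0, 1, 1, 0, 1 and 0 Cd36 UMIs in the 6 libraries, or 0, 4.54, 8.77, 0, 2.33 and 0 CPM. The epithelial CPM in the glands overlapped with these. The fibroblast CPM did so in Prepuberty 2 and DCIS 2 and lay above them in Prepuberty 1 and DCIS 1. A low level of Cd36 in epithelial-like or fibroblast-like cells therefore cannot be told apart from free RNA. The intervals cover counting error only. The level of Cd36 over all cells of a library, the pool that free RNA comes from, was 100.5, 140.3, 98.2 and 83.6 CPM in the glands and 3.29 and 3.25 CPM in Tumor, and its part in the low levels was not tested.

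**Figure D1:**
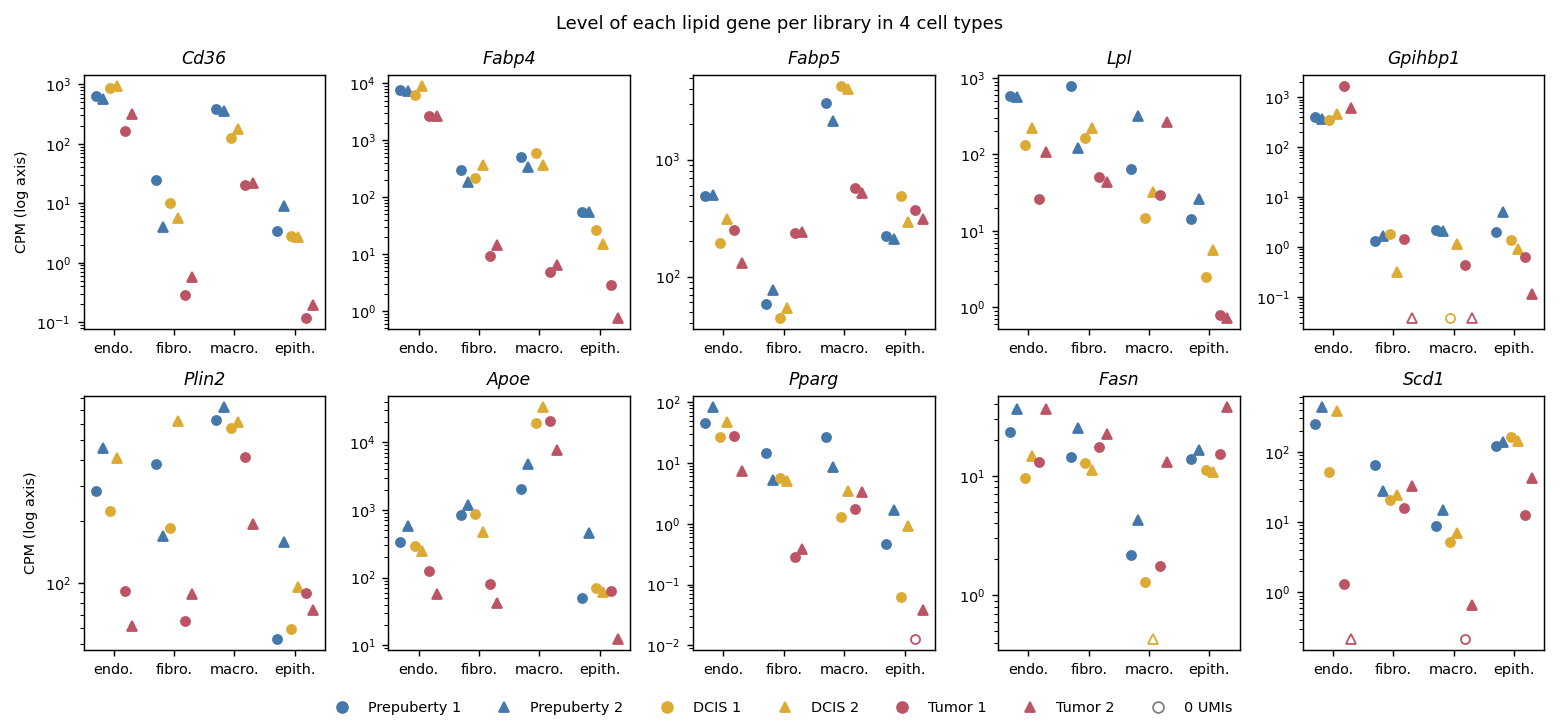
CPM (log axis) of the 10 genes in each of the 6 libraries, a panel per gene, with the cell types along the horizontal axis. Colours give the disease state and symbol shapes the replicate, with open symbols at the bottom for libraries with 0 UMIs. Cd36, Fabp4 and Gpihbp1 are highest in endothelial-like cells and Apoe and Fabp5 in macrophage-like cells, of the 4 types shown. Scd1 reaches 0 to 1.32 CPM in endothelial-like cells of Tumor.

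In endothelial-like cells Lpl, Fabp4, Plin2, Apoe and Scd1 fell in Tumor, whereas Fabp5, Gpihbp1, Pparg and Fasn did not pass the test. Against Prepuberty the first 3 of these depend on the processing: Fabp5, Gpihbp1 and Pparg each passed with DESeq2 (-1.39, 1.57 and -1.68, DESeq2 adjusted p = 0.0197, 0.0346 and 0.0492) and without a filter on low counts, and Fabp5 and Gpihbp1 also with the replicate number as a block (-1.40 and 1.45, edgeR adjusted p = 0.0352 and 0.0470), without integration and with thinned sums. Tumor libraries enter both of the Tumor comparisons, so these are not independent of each other. Of the 9 members tested between Tumor and DCIS, 5 fell and none rose at an adjusted p under 0.05 (edgeR quasi-likelihood test, Benjamini-Hochberg over all genes), where 13.7% of 10603 genes passed, 6.58% as lower and 7.08% as higher. Between Tumor and Prepuberty the same count of 5 of 9 fell, where 11.6% of genes passed, 4.82% as lower and 6.82% as higher. None of 10 members passed between DCIS and Prepuberty, where 0% of genes did, 1203 had an unadjusted p under 0.05 and DESeq2 called 58. The median log2 fold change of the members was -1.84 for Tumor over DCIS and -1.60 for Tumor over Prepuberty, beside -0.02 over all genes tested in each.

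Lpl, the lipase itself, stood at 578 and 565 CPM in Prepuberty, 134 and 224 CPM in DCIS and 26.4 and 109 CPM in Tumor. The 3 states did not overlap. Lpl fell in Tumor, with log2 fold changes of -3.36 over Prepuberty (SE 0.51, edgeR adjusted p = 0.00497) and -1.97 over DCIS (SE 0.50, adjusted p = 0.0346), while DCIS against Prepuberty gave -1.39 (SE 0.44, adjusted p = 0.330). The call over DCIS lapsed without DCIS 1, DCIS 2 or Tumor 1 (edgeR adjusted p = 0.0732, 0.141 and 0.0745) and without integration of the libraries (adjusted p = 0.0560), and that over Prepuberty held under every alternative run. Gpihbp1, which anchors the lipase to capillaries, went the other way in level: 400.1 and 365 CPM in Prepuberty, 353 and 468 CPM in DCIS, and 1684 and 610.0 CPM in Tumor. Both Tumor libraries were above all 4 gland libraries, but they were far apart from each other. The log2 fold change was 1.18 over DCIS (SE 0.49, edgeR adjusted p = 0.144) and 1.57 over Prepuberty (SE 0.50, adjusted p = 0.0742), and without Tumor 1 the first became -0.065. Within cluster 6, the larger of the 2 clusters of this class and the one led by Gpihbp1, the libraries stood at 637, 471, 812, 813, 1800.3 and 648 CPM, so that Tumor 2 lay below both DCIS libraries.

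Fabp4, the fatty acid binding protein of adipocytes and capillaries, was among the highest transcripts of these cells, at 7736 and 7422 CPM in Prepuberty, 6358 and 8948 CPM in DCIS and 2634 and 2625 CPM in Tumor. Every gland library was above both Tumor libraries. It fell, with log2 fold changes of -1.91 over DCIS (SE 0.37, edgeR adjusted p = 0.0126) and -1.60 over Prepuberty (SE 0.36, adjusted p = 0.0227). Leaving out either DCIS library ended the first call (edgeR adjusted p = 0.0634 and 0.0917), and leaving out any 1 library other than Tumor 1 ended the second (adjusted p = 0.0597 to 0.0978), as did a fit of the 4 libraries compared (adjusted p = 0.0649), with the direction kept each time. Of the cells thinned to 2000 UMIs, 87.1% to 93.3% held a Fabp4 UMI in the glands, 79.7% in Tumor 1 (69.2% to 87.3%) and 28.6% in Tumor 2 (13.8% to 50.0%, 6 of 21 cells). The Tumor libraries agreed in CPM and not in this share. Fabp5, its relative of the same family, had 488 and 502 CPM in Prepuberty, 194 and 314 CPM in DCIS and 251 and 131 CPM in Tumor, so DCIS and Tumor overlapped (log2 fold change -0.70, SE 0.39, edgeR adjusted p = 0.258). Against Prepuberty the Tumor value was -1.37 (SE 0.40, adjusted p = 0.0563).

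The droplet coat Plin2 was at 281 and 458 CPM in Prepuberty, 225 and 409 CPM in DCIS and 91.1 and 61.7 CPM in Tumor. It fell, with log2 fold changes of -2.34 over DCIS (SE 0.39, edgeR adjusted p = 0.00782) and -2.25 over Prepuberty (SE 0.39, adjusted p = 0.0084). Both calls held under every alternative run for them. The lipid carrier Apoe was at 337 and 573 CPM, 294 and 250.3 CPM, and 127 and 58.1 CPM in the 3 states in turn. It fell, with log2 fold changes of -1.84 over DCIS (SE 0.44, edgeR adjusted p = 0.0273) and -2.23 over Prepuberty (SE 0.44, adjusted p = 0.0134). The first call lapsed without DCIS 1, DCIS 2 or Tumor 2 (edgeR adjusted p = 0.131, 0.0674 and 0.0665) and the second without Prepuberty 2 (adjusted p = 0.0545). The receptor Pparg held 45.2 and 82.8 CPM, 26.6 and 47.3 CPM, and 27.7 and 7.26 CPM, the last from 2 UMIs, and passed neither test (-1.13 and -1.60, edgeR adjusted p = 0.179 and 0.0740).

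Of the synthesis enzymes, Fasn was low in all 6 libraries (23.6, 36.2, 9.58, 14.8, 13.2 and 36.3 CPM, in the order Prepuberty 1 and 2, DCIS 1 and 2, Tumor 1 and 2, which later lists of 6 values follow). It did not pass the test in either Tumor comparison (0.42 and -0.55, edgeR adjusted p = 0.568 and 0.440). Scd1, the desaturase, was at 247, 432, 51.8 and 379 CPM in the glands, and Tumor held 1.32 and 0 CPM, which is 1 UMI in both Tumor libraries together. It fell in both comparisons (edgeR adjusted p = 0.00814 against DCIS and 0.00597 against Prepuberty), and both calls lapsed without Tumor 1 (adjusted p = 0.0701 and 0.0682) or Tumor 2 (adjusted p = 0.0564 and 0.0506). As a ratio of pooled CPM, Tumor was 221-fold below DCIS (95% Poisson interval 39.6 to 8734, 1 against 1195 UMIs) and 359.8-fold below Prepuberty (64.6 to 14216), intervals that cover counting error only.

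The adipocyte markers moved with several of these genes. Of endothelial-like cells, 24.1% and 54.8% in Prepuberty, 7.08% and 29.5% in DCIS and none in Tumor held an adipocyte marker UMI. Without those cells Scd1 was at 31.2, 20.5, 6.62 and 93.5 CPM in the glands, and its calls were lost (log2 fold change -5.84 over DCIS, edgeR adjusted p = 0.0512, and -4.72 over Prepuberty, adjusted p = 0.149). Lpl against DCIS (-1.35, adjusted p = 0.0825) and Fabp4 against Prepuberty (-1.21, adjusted p = 0.0663) also lost their calls. Cd36 changed little, at 661, 543, 869 and 889 CPM in the glands against 162 and 319.5 CPM in Tumor, and so did Fabp4 against DCIS (-1.63, edgeR adjusted p = 0.0200). Plin2 and Apoe kept their calls in both comparisons. Fabp5 was then at 352, 231, 166 and 174 CPM in the glands and 251 and 131 CPM in Tumor, so that Prepuberty and Tumor overlapped. The cells left out were mostly of the Gpihbp1-rich cluster 6 in Prepuberty 2, where 116 of its 456 cells remained (302 of 668 in the class), and none were of Tumor. Gpihbp1 was lower in the glands without those cells (232, 153, 285 and 227 CPM), and its difference then passed both tests, at 1.84 over DCIS (edgeR adjusted p = 0.0383) and 2.53 over Prepuberty (adjusted p = 0.0126). In cluster 6 without those cells it was at 487, 336, 741, 582, 1800.3 and 648 CPM, with DCIS and Tumor overlapping, and passed neither test (0.72, edgeR adjusted p = 0.342, and 1.57, adjusted p = 0.0508).

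**Figure D2:**
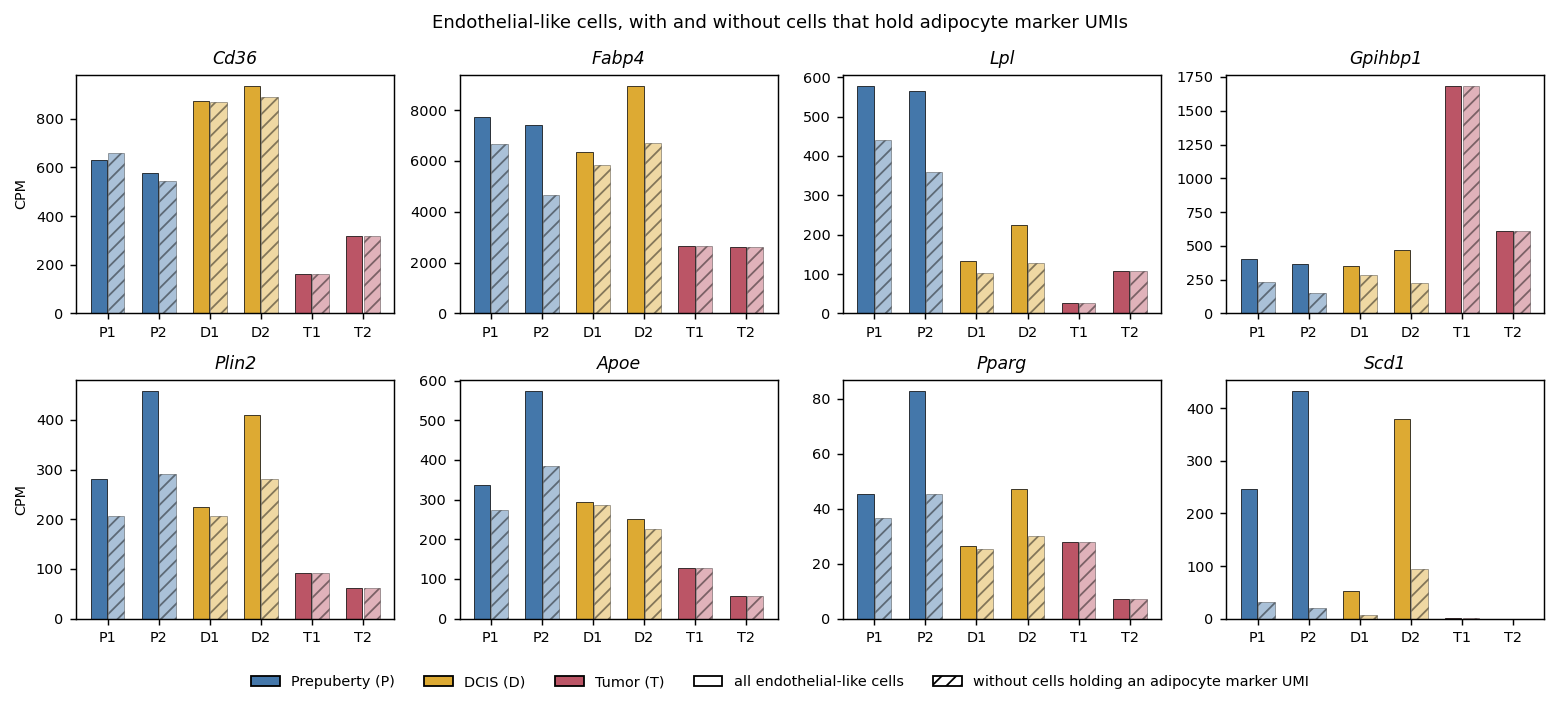
CPM per library in endothelial-like cells for 8 of the genes, with all cells (solid bars) and without the cells that held an adipocyte marker UMI (hatched bars). Scd1 in the glands drops from 51.8 to 432 CPM to 6.62 to 93.5 CPM, while Cd36 in the glands stays between 543 and 936 CPM and in Tumor at 162 and 319.5 CPM.

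The endothelial-like class was made of 2 clusters. Cluster 6, with 69 and 29 cells in the Tumor libraries, held the capillary gene Gpihbp1 at 471 to 813 CPM in the glands, and cluster 11, led by the venule genes Ackr1 and Selp, held it at 11.8 to 42.01 CPM and had fewer than 10 cells in each Tumor library. Cluster 11 also had less Cd36 (358 to 602 CPM against 645 to 1307 CPM in cluster 6) and less Fabp4 (2178 to 3004 CPM against 9101 to 13696 CPM) in the glands. Within cluster 6 alone, Cd36 was at 805, 645, 1242 and 1307 CPM in the glands and 163 and 307 CPM in Tumor, and Fabp4 at 2639.6 and 2577 CPM in Tumor. The place of the Tumor cells depends on integration: without it, 75 and 23 of them fell in a cluster led by Ackr1 and Selp, and 1 and 9 in one with Gpihbp1 and Cldn5 among its leading genes. These are values within clusters that the same genes helped to define, so no test was made between the clusters.

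Fibroblast-like cells showed a split between the 2 fatty acid binding proteins: Fabp4 fell and Fabp5 rose. Of 9 members tested between Tumor and DCIS, 4 fell and 1 rose, where 14.5% of 12162 genes passed (5.94% lower and 8.58% higher). Between Tumor and Prepuberty 4 fell and 1 rose as well, where 9.85% of genes passed (2.95% lower and 6.9% higher). None of 10 passed between DCIS and Prepuberty, where 0% of genes did, 1239 had an unadjusted p under 0.05 and DESeq2 called 91. The member median was -2.71 for Tumor over DCIS and -2.35 for Tumor over Prepuberty on the log2 scale, beside 0.13 and 0.03 over all genes. Without integration of the libraries the states lay mostly in different clusters of this class: 166 and 28 cells of Tumor 1 and 2 fell in a cluster led by Sfrp2 and Cthrc1 and 1 and 185 in a cluster led by H19 and Brinp3, which held 1 gland cell between them, while the clusters of the gland cells held 0 to 8 cells of a Tumor library. The part of this in the results below was not tested.

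Fabp4 stood at 302, 182, 219.6 and 375 CPM in the 4 gland libraries and at 9.22 and 14.7 CPM in Tumor. It fell, with log2 fold changes of -5.36 over DCIS (SE 0.50, edgeR adjusted p = 0.00535) and -4.85 over Prepuberty (SE 0.49, adjusted p = 0.00569), and both calls held under every alternative run. Fabp5 was at 58.0, 76.0, 44.4 and 54.1 CPM in the glands and at 238 and 241 CPM in Tumor. The groups did not overlap for either gene. Fabp5 rose by 1.59 from DCIS (SE 0.33, edgeR adjusted p = 0.0227) and by 1.38 from Prepuberty (SE 0.33, adjusted p = 0.0403). Leaving out either DCIS library ended the first call (adjusted p = 0.206 and 0.172) and leaving out any 1 of the 6 libraries ended the second (adjusted p = 0.0648 to 0.182), with the direction kept each time. In cluster 0 alone, the largest of the integrated clusters of this class, neither passed (1.36 and 0.87, edgeR adjusted p = 0.0643 and 0.265). Cells with a Fabp5 UMI among those thinned to 2000 UMIs were 7.02% to 12.2% in the glands, 18.7% in Tumor 1 and 27.6% in Tumor 2 (18.2% to 31.9%, 46.6% and 65.2% before thinning).

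Apoe in fibroblast-like cells was at 829, 1199, 857 and 471 CPM in the glands and 80.4 and 41.7 CPM in Tumor, with no overlap. It fell, with log2 fold changes of -4.08 over DCIS (SE 0.59, edgeR adjusted p = 0.00894) and -4.45 over Prepuberty (SE 0.60, adjusted p = 0.00839). The call over DCIS lapsed without DCIS 1 (edgeR adjusted p = 0.0538) or DCIS 2 (adjusted p = 0.0572), and that over Prepuberty without Prepuberty 2 (adjusted p = 0.0523). Pparg fell in both comparisons (edgeR adjusted p = 0.0140 and 0.0111) but rests on few molecules, 312, 86, 31 and 47 UMIs in the gland libraries and 3 in both Tumor libraries together. The ratio of pooled CPM was 15.4-fold below DCIS (95% Poisson interval 5.08 to 76.3) and 30.4-fold below Prepuberty (10.3 to 148). Both calls lapsed without Tumor 2 (edgeR adjusted p = 0.0773 and 0.0602), and the first also without DCIS 1 or DCIS 2 (adjusted p = 0.0675 and 0.0854). Pparg is thus low in these cells in all states, at 5.06 to 14.4 CPM in the glands.

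Lpl was at 784, 119.8, 163 and 224 CPM in the glands and 50.4 and 43.8 CPM in Tumor. It fell from Prepuberty with a log2 fold change of -3.74 (SE 0.84, edgeR adjusted p = 0.0350), where Prepuberty 1 stood apart from its fellow library and the value without it was -1.78 (adjusted p = 0.0963; 0.0641 to 0.156 without DCIS 1, DCIS 2, Tumor 1 or Tumor 2), while against DCIS it was -2.71 (SE 0.81, adjusted p = 0.0599). Plin2 was at 382, 169.6, 185 and 623 CPM in the glands and 65.1 and 88.2 CPM in Tumor. It fell from DCIS with a log2 fold change of -3.11 (SE 0.66, edgeR adjusted p = 0.0240; -2.04 and adjusted p = 0.154 without DCIS 2; adjusted p = 0.0551 and 0.0975 without Tumor 1 and 2) and was at -2.35 against Prepuberty (SE 0.64, adjusted p = 0.0595). With the replicate number as a block, Lpl over DCIS (-2.88, edgeR adjusted p = 0.0273) and Plin2 over Prepuberty (-2.38, adjusted p = 0.0471) passed as well, as they did with DESeq2, without a filter on low counts and with only the 4 libraries compared. For both genes the glands of 1 state differed widely from each other, and every gland library was above both Tumor libraries.

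The synthesis genes passed no test in these cells. Fasn had 14.5, 24.998, 12.8, 11.3, 17.6 and 22.4 CPM and Scd1 had 65.1, 27.5, 20.8, 24.2, 15.8 and 33.1 CPM, with log2 fold changes of 0.02 and -0.63 for Tumor over DCIS (edgeR adjusted p = 0.980 and 0.396). Scd1 was at -1.46 for Tumor over Prepuberty (SE 0.49, edgeR adjusted p = 0.105), which passed with DESeq2 (-1.48, adjusted p = 0.0477) and without a filter on low counts. Gpihbp1 was at 0 to 1.86 CPM in every library. With cell classes from clusters made without integration, Fabp4 and Apoe kept their calls in both Tumor comparisons and Pparg over Prepuberty (edgeR adjusted p = 0.0478), while Fabp5 (1.80 and 1.59, adjusted p = 0.0526 and 0.0795), Plin2 over DCIS (adjusted p = 0.0526), Pparg over DCIS (adjusted p = 0.0563) and Lpl over Prepuberty (adjusted p = 0.108) lost theirs. The Tumor cells of this class also carried markers of other cells. Myoepithelial markers summed to 1831 and 466 CPM in Tumor 1 and 2, against 24.3 to 74.8 CPM in the glands, epithelial markers to 714 and 165 CPM against 16.3 to 78.3 CPM, and 35.0% and 43.3% of the cells held a UMI of the T antigen. Without the cells that held one, Fabp4 (-4.46, edgeR adjusted p = 0.0089), Fabp5 (1.77, adjusted p = 0.0225), Plin2, Apoe and Pparg kept their calls against DCIS. Against Prepuberty, Fabp5 (1.56), Fabp4, Pparg and Apoe kept theirs and Lpl lost its call (-2.82, edgeR adjusted p = 0.0716).

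**Figure D3:**
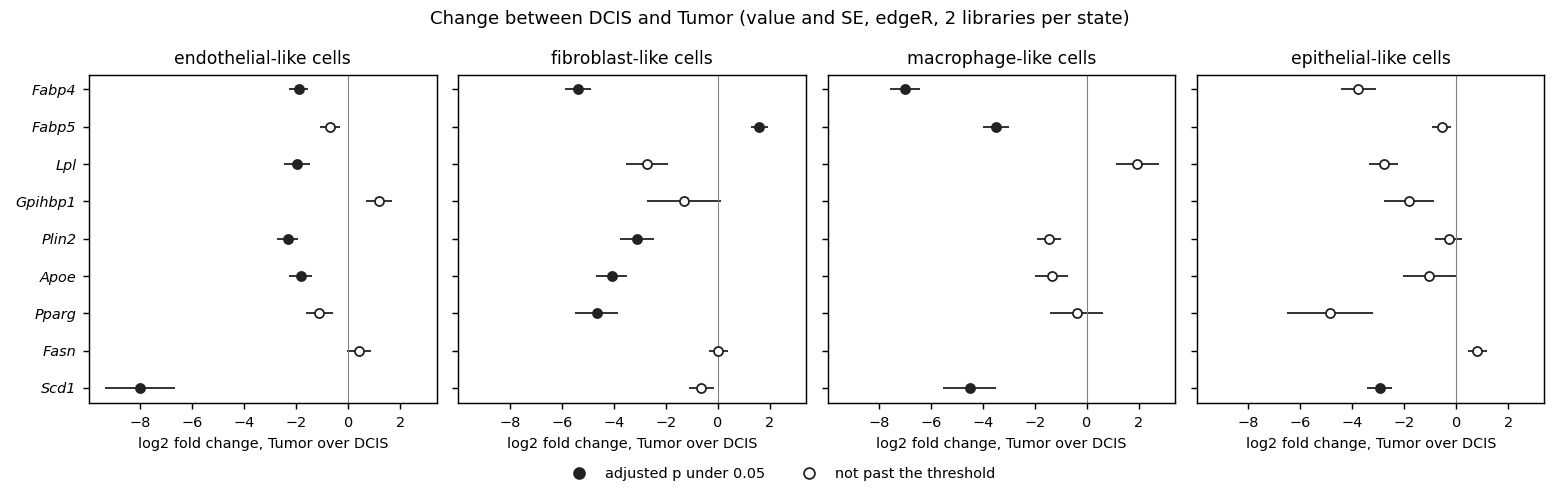
log2 fold change of Tumor over DCIS (horizontal axis, ± SE of the edgeR fit) for the 9 members other than Cd36 in the 4 cell types, filled where the adjusted p is under 0.05. Fabp4 lies left of 0 in all 4 types, from -1.91 in endothelial-like to -6.995 in macrophage-like cells, whereas Fabp5 lies at 1.59 in fibroblast-like and -3.51 in macrophage-like cells.

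In macrophage-like cells both fatty acid binding proteins fell in Tumor. With integration of the libraries these cells formed 1 cluster, but without it the states lay mostly apart: a cluster led by Pf4 and Ccl4 held 98, 78, 235 and 163 cells of the gland libraries and 60 and 42 of Tumor, and one led by C1qa and C1qc held 0, 3, 5 and 6 of the glands and 338 and 106 of Tumor. Levels were not compared within these 2 clusters. Of 7 members tested between Tumor and DCIS 3 fell and none rose, where 6.29% of 7777 genes passed (3.92% lower and 2.37% higher), and between Tumor and Prepuberty 4 of 7 fell, where 5.99% of genes passed (4.06% lower and 1.93% higher). Of these, Pparg and Scd1 passed the filter on low counts (8.36 CPM in 2 libraries for this class) only through Prepuberty, where they were highest, so that a fall from it is partly fixed by the filter and their calls are given as values that support nothing. Without them 2 of 5 members fell in each comparison. Gpihbp1 (at most 1 UMI in a library) and Fasn (0 to 20 UMIs) were too low to be tested in these cells. None of 8 members passed between DCIS and Prepuberty, where 0.129% of genes did (0.103% higher and 0.0257% lower). The median of the other 5 members on the log2 scale was -1.46 for Tumor over DCIS and -1.51 for Tumor over Prepuberty, beside 0.06 and 0.09 over all genes.

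Fabp4 stood at 511, 337, 594 and 372 CPM in the glands and at 4.82 and 6.56 CPM in Tumor. Fabp5 stood at 3059.8, 2160.5, 4257 and 4045 CPM in the glands and at 568 and 514 CPM in Tumor. Neither overlapped between glands and Tumor. Fabp4 fell, with log2 fold changes of -6.995 over DCIS (SE 0.57, edgeR adjusted p = 0.000289) and -6.69 over Prepuberty (SE 0.57, adjusted p = 0.000187). Fabp5 fell, with log2 fold changes of -3.51 over DCIS (SE 0.49, edgeR adjusted p = 0.00457) and -2.73 over Prepuberty (SE 0.47, adjusted p = 0.00751). All 4 calls held under every alternative run for them, and Fabp4 had values of -7.36 to -6.30 over DCIS. After thinning, 24.4% to 36.2% of macrophage-like cells held a Fabp4 UMI in the glands and 1.80% and 2.26% in Tumor, and 63.8% to 80.7% held a Fabp5 UMI in the glands and 36.2% and 32.3% in Tumor. T-cell-like cells held 0, 3, 6, 2, 2 and 0 Fabp4 UMIs, and the level of Fabp4 over all cells went from 735 to 1848 CPM in the glands to 39.7 and 20.1 CPM in Tumor, whose part in the fall was not tested.

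Apoe, a secreted product typical of tissue macrophages, had 2046 and 4851 CPM in Prepuberty, 19350.2 and 32958 CPM in DCIS and 20573 and 7695 CPM in Tumor. Both DCIS libraries were above both Prepuberty libraries, with a log2 fold change of 3.12 (SE 0.67, edgeR adjusted p = 0.141). The Tumor libraries lay on either side of DCIS 1 (Tumor over DCIS -1.36, SE 0.63, adjusted p = 0.202; over Prepuberty 1.75, SE 0.64, adjusted p = 0.136). This comparison of DCIS with Prepuberty depends on the libraries and the tool, since it passed without Tumor 1 (edgeR adjusted p = 0.0125), without Tumor 2 (adjusted p = 0.00825), with the 4 gland libraries alone (adjusted p = 0.0271) and with DESeq2 (3.10, adjusted p = 0.000879).

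Plin2 in macrophage-like cells was at 625, 725, 571, 612, 414 and 194 CPM, so both Tumor libraries were lowest, but the test was not passed (-1.46 over DCIS, SE 0.48, edgeR adjusted p = 0.0860, and -2.43 with adjusted p = 0.00627 without Tumor 1). Lpl was uneven between libraries of a state, with 63.6 and 322 CPM in Prepuberty, 14.9 and 32.3 CPM in DCIS and 29.4 and 264 CPM in Tumor. Both DCIS libraries were below both Prepuberty libraries (log2 fold change -2.84, edgeR adjusted p = 0.291), and Tumor was at 1.94 over DCIS (adjusted p = 0.176) and -0.90 over Prepuberty (adjusted p = 0.563). Without a filter on low counts Plin2 passed in both Tumor comparisons (-1.47 and -1.46, edgeR adjusted p = 0.0239 and 0.0270), Lpl over DCIS (1.91, adjusted p = 0.0014) and Apoe over Prepuberty (1.81, adjusted p = 0.00577). Pparg, with 12, 4, 2, 3, 4 and 5 UMIs, fell from Prepuberty to Tumor (-3.26, edgeR adjusted p = 0.0445; -2.05 with adjusted p = 0.495 without Prepuberty 1), a call that leaving out any 1 library other than Prepuberty 2 ended. Scd1, with 4, 7, 8, 6, 0 and 1 UMIs, fell in both comparisons, 22.1-fold below DCIS in pooled CPM (95% Poisson interval 3.36 to 933, edgeR adjusted p = 0.0305) and 45.1-fold below Prepuberty (6.56 to 1943, adjusted p = 0.0138), and leaving out any 1 library ended the first call and leaving out Prepuberty 1, Prepuberty 2 or DCIS 1 the second (edgeR adjusted p = 0.0579, 0.125 and 0.0754). Both genes were at or over the filter's limit in the 2 Prepuberty libraries and in no other, and such counts are too few to say more.

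Neutrophil markers in the macrophage-like class summed to 145, 350, 315, 41.5, 931 and 4940 CPM, highest in Tumor 2. With the cells of a neutrophil cluster left out, Fabp4 (-7.03) and Fabp5 (-3.51) kept their calls over DCIS. The adipocyte markers were at 0 to 6.92 CPM in this class.

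Epithelial-like cells include transformed cells of this model, but not every cell with a T antigen UMI was in this class. Cells left unnamed, 558 and 520 in Tumor 1 and 2, entered no comparison, and 63.3% and 46.7% of them held such a UMI. In epithelial-like cells Scd1 fell in both Tumor comparisons, and Fabp4 and Lpl fell against Prepuberty. Of 9 members tested between Tumor and DCIS 1 fell and none rose, where 1.06% of 13330 genes passed (0.75% lower and 0.308% higher), and between Tumor and Prepuberty 3 of 9 fell, where 5.84% of genes passed (3.18% lower and 2.66% higher). None of 10 passed between DCIS and Prepuberty, where 0% of genes did, 1630 had an unadjusted p under 0.05 and DESeq2 called 298. The member median on the log2 scale was -1.83 and -2.79 in the Tumor comparisons, beside 0.09 over all genes in both.

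Scd1 was the member that fell in both Tumor comparisons, from 121 and 139.7 CPM in Prepuberty and 163 and 142 CPM in DCIS to 12.6 and 42.9 CPM in Tumor. All gland libraries were above both Tumor libraries. The log2 fold change was -2.94 over DCIS (SE 0.48, edgeR adjusted p = 0.0430) and -2.60 over Prepuberty (SE 0.47, adjusted p = 0.0339). With the replicate number as a block the call over DCIS ended, as no gene passed there. Both calls were lost when any 1 of the 4 gland libraries was left out (edgeR adjusted p = 0.0902 to 0.273 over DCIS and 0.0634 to 0.122 over Prepuberty) and when only the 4 libraries compared were fitted (adjusted p = 0.0844 and 0.0578). The states sit in different clusters of this class: cluster 9 held 735 and 240 Tumor cells and 23 to 39 cells of a gland library, and cluster 12 held 21 and 50 Tumor cells and 59 to 348 of a gland library. In cluster 1 alone, the largest, where Prepuberty 2 had 7 cells and was left out, Scd1 was at -2.38 over DCIS and -2.09 over Prepuberty (edgeR adjusted p = 0.118 and 0.170), and in cells with a T antigen UMI, again without Prepuberty 2, at -2.95 and -2.51 (adjusted p = 0.0784 and 0.127), and under either choice no member passed a Tumor comparison. Fasn, the enzyme before it in the pathway, was at 13.9, 16.5, 11.3, 10.7, 15.4 and 37.7 CPM and passed neither test (0.81 over DCIS, SE 0.37, edgeR adjusted p = 0.228, and 0.47 over Prepuberty, adjusted p = 0.447). Fabp5 was at 223, 209.8, 492, 293, 372 and 311 CPM, with DCIS and Tumor overlapping and both above Prepuberty, at log2 fold changes of 0.96 for DCIS over Prepuberty (SE 0.37, edgeR adjusted p = 0.378) and 0.40 for Tumor over Prepuberty (adjusted p = 0.501).

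Fabp4 in epithelial-like cells was at 55.8, 55.3, 26.6 and 15.3 CPM in the glands and 2.90 and 0.768 CPM in Tumor. Without the cells that held an adipocyte marker UMI (11 of 145 in Prepuberty 2), it was at 43.7, 26.6, 21.9 and 13.5 CPM in the glands. Tumor was then at 2.92 and 0.779 CPM. Lpl was at 14.5, 25.8, 2.46 and 5.65 CPM in the glands and 0.785 and 0.730 CPM in Tumor. For both, the 3 states did not overlap. They fell from Prepuberty to Tumor (Fabp4 -5.07, SE 0.72, edgeR adjusted p = 0.0268; Lpl -4.93, SE 0.60, adjusted p = 0.0262) and did not pass against DCIS (-3.77 and -2.79, adjusted p = 0.0528 and 0.0588). Both calls over Prepuberty ended without Prepuberty 1 (edgeR adjusted p = 0.0907 and 0.0893) or Prepuberty 2 (adjusted p = 0.0976 for each), fits in which 3 and 0 of all genes passed. Against DCIS both genes passed with DESeq2 (DESeq2 adjusted p = 1.74e-06 and 0.00021), without a filter on low counts and without integration (edgeR adjusted p = 0.0236 and 0.0389). After thinning, Fabp4 was held by 6.86%, 3.46% and 0.308% of epithelial-like cells in Prepuberty, DCIS and Tumor, and T-cell-like cells stood at 0, 13.6, 52.6, 36.2, 4.66 and 0 CPM (0 to 6 UMIs). In DCIS and Tumor the epithelial CPM did not lie above the range of these, so a low level cannot be told apart from free RNA. Lpl over all cells went from 498 and 218 CPM in Prepuberty to 51.3 and 91.5 CPM in DCIS and 5.46 and 16.6 CPM in Tumor, as the epithelial values did, and the part of free RNA was not tested.

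Plin2 (53.3, 159, 59.4, 95.7, 89.5 and 73.4 CPM) and Apoe (49.9, 450.4, 70.4, 61.1, 64.0 and 12.5 CPM) overlapped between states in epithelial-like cells, and neither passed a test (edgeR adjusted p = 0.750 and 0.558 for Tumor over DCIS). Apoe was highest in Prepuberty 2, which held 145 epithelial-like cells. Pparg had 0 to 14 UMIs and Gpihbp1 0.115 to 5.07 CPM in a library, and both were lower in Tumor than in Prepuberty with DESeq2 (DESeq2 adjusted p = 0.0276 and 0.0167) but not with edgeR.

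**Figure D4:**
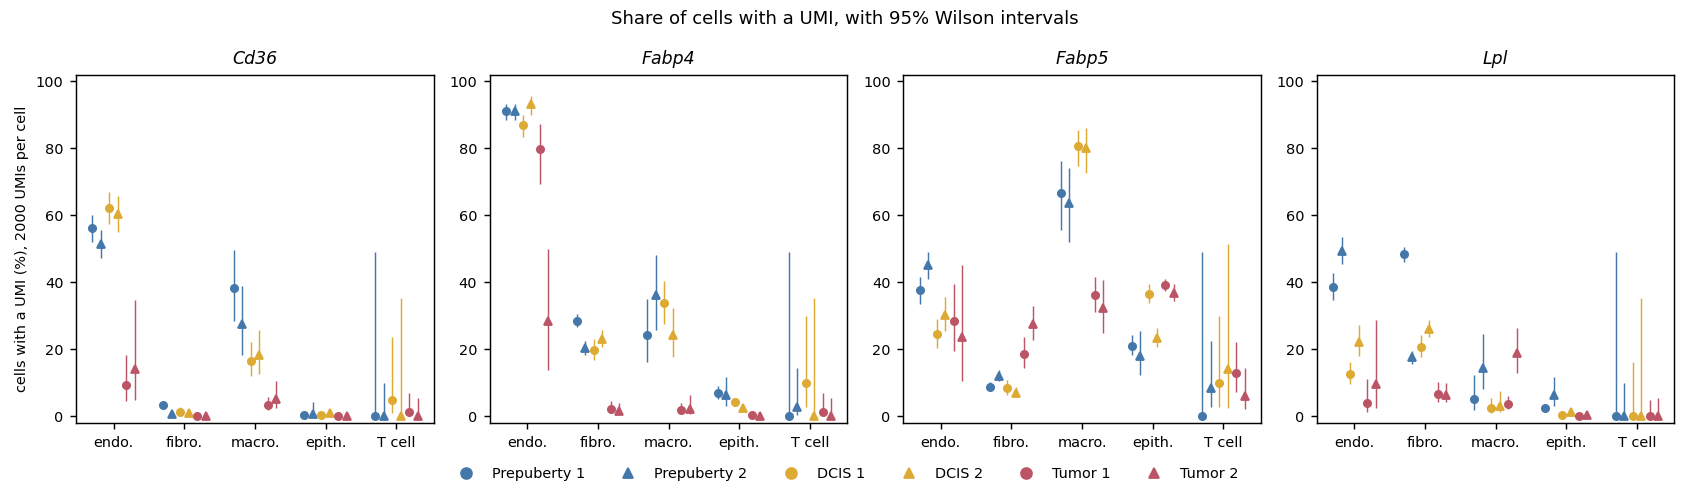
Share of cells with a UMI of Cd36, Fabp4, Fabp5 and Lpl (percent, cells thinned to 2000 UMIs, 95% Wilson intervals) per library in the 4 cell types and in T-cell-like cells, of which 4 to 77 in a library were deep enough. Cd36 is held by 51.4% to 62.3% of endothelial-like cells in the glands and by 9.46% and 14.3% in Tumor, and epithelial-like cells have at most 1.03%.

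The change between DCIS and Tumor was then compared between cell types in 1 model, over 6 pairs of types and with a term for the library. Of 54 tests of the 9 members, 14 passed, and the pairs with fibroblast-like cells gave 9 of them. For endothelial-like against fibroblast-like cells 3 of 9 members differed, where 2.58% of 13862 genes did, and for fibroblast-like against macrophage-like cells 3 of 9, where 6.8% did. For fibroblast-like against epithelial-like cells 3 of 9 differed beside 10.4% of genes. The other pairs gave 2 of 9 beside 3.41% (endothelial-like against macrophage-like), 1 of 9 beside 3.6% (endothelial-like against epithelial-like) and 2 of 9 beside 4.44% (macrophage-like against epithelial-like). Fabp5 differed in 5 of the 6 pairs, with a log2 fold change of 1.59 in fibroblast-like, -3.51 in macrophage-like, -0.70 in endothelial-like and -0.56 in epithelial-like cells. The largest of these differences was 5.02 on the log2 scale between fibroblast-like and macrophage-like cells (SE 0.43, edgeR adjusted p = 4.4e-05). Fabp4 fell less in endothelial-like cells than in fibroblast-like cells (difference 3.36, SE 0.62, edgeR adjusted p = 0.0105) or macrophage-like cells (4.99, SE 0.70, adjusted p = 0.0020). With 1 library left out in turn, the difference in Fabp5 between fibroblast-like and macrophage-like cells was the only 1 of the 14 that passed in all 6 fits (edgeR adjusted p = 0.0048 at most), and each of the others ended without DCIS 1, DCIS 2 or both, the difference in Fabp4 between endothelial-like and fibroblast-like cells among them (adjusted p = 0.0713 and 0.119). In those fits few genes passed at all, 0.0477% to 2.57% for a pair of types.

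A wider list of 96 lipid genes, chosen by function, gave a background for the members. In endothelial-like cells 5 of 81 tested rose and 8 fell between DCIS and Tumor (16.0% called). In fibroblast-like cells 4 of 81 rose and 9 fell (16.0%), in macrophage-like cells 1 of 61 rose and 9 fell (16.4%), and in epithelial-like cells none of 85 passed. Against Prepuberty, 11 of 81 (2 up, 13.6%), 7 of 81 (1 up, 8.64%), 6 of 61 (1 up, 9.84%) and 6 of 85 (4 up, 7.06%) passed in the 4 types in the same order, beside 11.6%, 9.85%, 5.99% and 5.84% of all genes. No gene of the list passed between DCIS and Prepuberty. The shares for Tumor over DCIS stand beside 13.7%, 14.5%, 6.29% and 1.06% of all genes. Most shares, counted in either direction, lie near those of all genes, and that of macrophage-like cells for Tumor over DCIS lies above it. By direction, the falls from DCIS in endothelial-like, fibroblast-like and macrophage-like cells stand beside 6.58%, 5.94% and 3.92% of all genes. The rises there stand beside 7.08%, 8.58% and 2.37%. From Prepuberty, 9 of 81, 6 of 81, 5 of 61 and 2 of 85 fell, beside 4.82%, 2.95%, 4.06% and 3.18% of all genes. The rises from it stand beside 6.82%, 6.9%, 1.93% and 2.66%. Some of the calls were of genes that passed the filter on low counts through 1 state only. Without such genes, 3 of 78 rose and 8 fell in endothelial-like cells (14.1%, beside 12.7% of all genes counted likewise) and none of 57 rose and 9 fell in macrophage-like cells (15.8%, beside 5.94%) between DCIS and Tumor, and against Prepuberty 10 of 78 (12.8%, beside 10.5%) and 4 of 57 (7.02%, beside 5.49%) passed. The list had no such call in the other types.

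In endothelial-like cells the scavenger receptors Olr1 (44.7, 28.1, 88.0, 22.0, 0 and 0 CPM) and Msr1 (18.5, 12.8, 18.1, 14.8, 0 and 0 CPM) and the endothelial lipase Lipg (25.2, 47.0, 85.1, 53.5, 0 and 0 CPM) were among the genes of the list that fell against DCIS. With a floor of 3 UMIs over the state, Tumor was at least 23.9-fold lower for Lipg, 19.0-fold lower for Olr1 and 5.67-fold lower for Msr1. These 3 genes had no UMI in any Tumor endothelial-like cell. Going up were the triglyceride synthesis gene Mogat2 (0.176, 0, 0, 0, 22.4 and 36.3 CPM, at least 48.7-fold higher than in DCIS) and the sterol synthesis genes Dhcr7 (0.528, 2.18, 0, 0.722, 7.92 and 18.2 CPM) and Idi1 (5.46, 8.58, 0.355, 4.33, 17.2 and 25.4 CPM, log2 fold change 2.75, edgeR adjusted p = 0.0480). Mogat2 and Dhcr7 passed the filter on low counts (3.58 CPM in 2 libraries for this class) only through Tumor, where they were highest, so their direction was partly fixed by it. With 1 library left out in turn, Lipg passed against DCIS in all 6 fits, while Msr1 passed in 5 of 6, Olr1 in 4 and Idi1 in 2. Against Prepuberty the sterol exporter Abcg1 rose (36.8, 26.5, 22.7, 23.5, 97.7 and 105 CPM, log2 fold change 1.60, edgeR adjusted p = 0.0113), and the droplet protein Cidec, itself 1 of the adipocyte markers above, was at least 9.27-fold lower, calls that held in 4 and 3 of 6 such fits.

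In fibroblast-like cells 5.94% of all genes were called lower between DCIS and Tumor. Of the list of sterol efflux and apolipoproteins, 3 of 9 tested genes fell and 6 did not pass. This list was picked out of the 8 after its counts were seen. In the same comparison 1 of 9 of its genes rose and 1 fell in endothelial-like cells, and none of 9 passed in epithelial-like cells. The list of regulators had a like share called, 2 of 6 in fibroblast-like cells (33.3% for each list). In macrophage-like cells it had 2 of 5 (40%, beside 50% for sterol efflux and apolipoproteins). The share was 7.69% to 20% in fibroblast-like and 0% to 25% in macrophage-like cells for the other 6 lists. Those that fell were the sterol sensor Nr1h3 (27.3, 26.1, 13.9, 24.8, 2.59 and 2.10 CPM, log2 fold change -3.76 over DCIS), the apolipoprotein Apod (148, 154, 448, 451, 67.7 and 51.8 CPM, -3.58) and Ch25h, which makes an oxysterol (61.0, 53.8, 40.5, 38.3, 8.36 and 6.89 CPM, -3.06). Each was lower in both Tumor libraries than in any gland. Among the rises were those of the fatty acid transporter family gene Slc27a3 (2.25, 2.46, 0, 0.968, 6.63 and 19.7 CPM, 3.78), the sterol synthesis gene Dhcr7 (2.02, 7.94, 1.86, 1.08, 12.7 and 26.8 CPM, 3.03) and Acadm, an enzyme of beta oxidation (17.5, 26.0, 5.76, 8.17, 34.6 and 88.8 CPM, 2.36). Against Prepuberty the lipoprotein receptor Scarb1 rose (1.61, edgeR adjusted p = 0.0350) and Vldlr fell (-1.87, adjusted p = 0.0318). With 1 library left out in turn, Nr1h3, Apod and Ch25h passed against DCIS in 5 of 6 fits each, Dhcr7 and Acadm in 3 each and Slc27a3 in 1, and Scarb1 and Vldlr passed against Prepuberty in 1 each.

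In macrophage-like cells 3.92% of all genes were called lower between DCIS and Tumor. Of the list of sterol efflux and apolipoproteins, 4 of 8 tested genes fell, among them Apoc1 (15.4, 104, 30.4, 46.1, 5.70 and 6.56 CPM, log2 fold change -3.18). Fabp3, another fatty acid binding protein, fell with Fabp4 and Fabp5 (92.1, 121, 71.1, 41.5, 4.38 and 2.62 CPM, -4.49 over DCIS, edgeR adjusted p = 0.00186), and so did Acsl1, which activates fatty acids (94.3, 48.8, 183, 95.7, 24.1 and 38.1 CPM, -2.80, adjusted p = 0.0116). The lipolysis inhibitor G0s2 rose (0, 0, 1.29, 4.61, 126 and 97.8 CPM, 4.84, edgeR adjusted p = 0.00404), but G0s2 was among the leading genes of the neutrophil cluster found without integration. Without the cells of that cluster it was at 0, 0, 1.30, 4.61, 4.07 and 1.35 CPM (0 to 9 UMIs), with DCIS and Tumor overlapping. Against Prepuberty, Lipg (-4.96) and Nr1h3 (-3.81) fell as well. The filter on low counts was passed by G0s2 only through Tumor and by Lipg only through Prepuberty, the states where they were highest. The direction of both was partly fixed by it, and their calls support nothing. With 1 library left out in turn, Fabp3 passed against DCIS in all 6 fits, Acsl1 in 5 and Apoc1 in 3, and against Prepuberty Nr1h3 passed in all 6. In epithelial-like cells, against Prepuberty, the sterol synthesis gene Idi1 (7.15, 5.07, 13.6, 10.8, 39.0 and 46.4 CPM, 2.46) and the fatty acid activating enzyme Acsl3 (14.1, 13.1, 24.8, 17.9, 45.1 and 56.8 CPM, 1.60, edgeR adjusted p = 0.0346) rose, and the triglyceride synthesis genes Mogat2 (-4.85) and Dgat2 (65.5, 27.9, 12.3, 33.4, 3.07 and 2.50 CPM, -4.36, adjusted p = 0.0290) fell. None of these epithelial calls held with every library left out in turn: Idi1 and Dgat2 passed in 4 of 6 fits and Acsl3 and Mogat2 in 2, and without Prepuberty 2 no gene at all passed. For these named genes the Tumor libraries lay outside the range of the Prepuberty libraries each time.

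Over 48 profiles (a library and a named class with at least 10 cells each, log2 of CPM + 1, 14355 genes), the genes whose pattern was most like that of Cd36 were Hlx (Pearson r = 0.848), Cd93 (0.826), Lmo2 (0.817), Scarf1 (0.809) and Csf2rb2 (0.809). By Spearman rank only Hlx was again among the first 5, so the order depends on the measure. By Pearson r, the closest gene was Robo4 for Gpihbp1 (0.965), Ptgir for Lpl (0.860), Calcrl for Pparg (0.821), Ednrb for Fabp4 (0.810), Ncln for Fasn (0.806), Apobec1 for Apoe (0.805), Ctsb for Plin2 (0.725), Cecr2 for Scd1 (0.700) and Tmem256 for Fabp5 (0.686). Spearman rank gave the same gene for Lpl, Plin2, Scd1 and Fabp5, and another for Gpihbp1 (Ltbp4, rho = 0.744), Pparg (Rnf213, 0.826), Fabp4 (Lrrc32, 0.804), Fasn (Ctdsp1, 0.841) and Apoe (Vcam1, 0.764). Among the members themselves Cd36 was most like Fabp4 (0.786), Pparg (0.760) and Lpl (0.675) and least like Fasn (-0.114). The profiles share libraries and differ in depth, so these are descriptions and carry no p.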

How the data were processed

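Single-cell libraries made with the 10x Genomics 3′ kit were sequenced from 6 tissue samples. The labels give kit v2 for all, whereas the study's methods name v3 for Tumor 2. The authors deposited UMI counts per gene and cell, raw and not normalized, made with Cell Ranger (3.0.2 per the file headers) on mm10, which the submitters' processing notes list. Cells with fewer than 200 genes or at least 10% mitochondrial UMIs were dropped, along with the highest Scrublet scores at a rate of 0.8% for each 1e3 barcodes scored in a library (715 barcodes of 23835, the automatic threshold marked 31). Cells were integrated and clustered with Seurat 5.3.0 (20 components, 2000 genes, resolution 0.8), and a cluster was named only where 3 or more markers of a type were at 2-fold or more over other cells and present in 25% of its cells. UMIs were summed per library and type (275421 to 42048970 UMIs a sum) and fitted with edgeR 4.0.16 (R 4.3.3, TMM factors 0.794 to 1.51, filterByExpr, quasi-likelihood F test, all 3 states sharing 1 estimate of the spread), with Benjamini-Hochberg adjustment over all genes tested and a threshold of 0.05. SE is the log2 fold change divided by the root of F. Permuting libraries of 2 states exactly gives no p below 0.3333, so no such test was made. CPM are without TMM. B-cell-like cells, planned as part of the reference for free RNA, were not used for it, because most of that cluster in DCIS was named dendritic without integration.

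The genes and lists were chosen with earlier results of these data known. Named are all 10 members, the 3 largest rises and 3 largest falls of the wider lipid lists per type and comparison, the genes most like each member, and markers. A gene that this rule names is not reported here, so the rises and falls given are not a complete list of the largest. The study tested single cells by a Wilcoxon test, which was not used here, since cells of 1 library are not replicates. Alternatives were DESeq2 1.42.0, other scaling, no filter on low counts, a replicate block, only the libraries compared, a mitochondrial limit of 5%, thinned UMIs, no integration, the largest cluster of each type, cells sorted by a T antigen UMI (epithelial-like with, fibroblast-like without), and leaving out each library.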

Additional observations from a re-analysis of the deposited data

Results flagged for a closer look

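These results are flagged because the change between DCIS and Tumor differed between 2 cell types in the test of that difference (edgeR quasi-likelihood interaction test, adjusted over 13862 genes). The differences are on the log2 scale, the first type's change minus that of the second, and 14 of 54 passed. Most depended on single libraries: with each of the 6 libraries left out in turn, 1 of the 14, that of Fabp5 between fibroblast-like and macrophage-like cells, passed every time, and each of the other 13 ended without DCIS 1 or DCIS 2, all with the direction kept. No group had enough libraries to look for single libraries that stand apart.

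Fabp5 differed most often: by -2.40 (SE 0.42, edgeR adjusted p = 0.0079) between endothelial-like and fibroblast-like cells, 2.61 (SE 0.42, adjusted p = 0.0055) between endothelial-like and macrophage-like cells, and 5.02 (SE 0.43, adjusted p = 4.4e-05) between fibroblast-like and macrophage-like cells. It also differed by 2.09 (SE 0.41, edgeR adjusted p = 0.0043) between fibroblast-like and epithelial-like cells and by -2.92 (SE 0.41, adjusted p = 0.0021) between macrophage-like and epithelial-like cells. Its level in Tumor was 238 and 241 CPM in fibroblast-like cells, above all glands, and 568 and 514 CPM in macrophage-like cells, below all glands.

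Fabp4 differed in 3 of the 6 pairs, and the test was not passed between fibroblast-like and macrophage-like cells (1.63, SE 0.72, edgeR adjusted p = 0.206). The difference was 3.36 (SE 0.62, edgeR adjusted p = 0.0105) between endothelial-like and fibroblast-like cells, 4.99 (SE 0.70, adjusted p = 0.0020) between endothelial-like and macrophage-like cells, and -3.12 (SE 0.72, adjusted p = 0.0227) between macrophage-like and epithelial-like cells, the latter with 26.6 and 15.3 CPM in DCIS and 2.90 and 0.768 CPM in Tumor.

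Apoe differed by -2.63 (SE 0.69, edgeR adjusted p = 0.0330) between fibroblast-like and macrophage-like cells and by -2.71 (SE 0.70, adjusted p = 0.0209) between fibroblast-like and epithelial-like cells. Plin2 differed by -2.67 (SE 0.70, edgeR adjusted p = 0.0232) between fibroblast-like and epithelial-like cells. Lpl differed by -4.41 (SE 1.23, edgeR adjusted p = 0.0411) between fibroblast-like and macrophage-like cells, where Tumor 1 and 2 were at 29.4 and 264 CPM in the latter. Gpihbp1 differed by 3.04 (SE 0.70, edgeR adjusted p = 0.0248) between endothelial-like and epithelial-like cells, the latter with 0.115 to 5.07 CPM. Scd1 differed by -6.98 (SE 1.39, edgeR adjusted p = 0.0145) between endothelial-like and fibroblast-like cells, resting on 1 UMI in the endothelial-like cells of Tumor. Without the cells that held an adipocyte marker UMI it was -4.85 (SE 1.68, edgeR adjusted p = 0.160), and it ended without Tumor 1 or Tumor 2 as well (adjusted p = 0.0515 and 0.0888). Without those cells Apoe between fibroblast-like and macrophage-like cells was at -2.63 (SE 0.77, edgeR adjusted p = 0.0522), and the other 12 differences passed. Without Tumor 1 the calls of Apoe (adjusted p = 0.140) and Plin2 (0.0656) between fibroblast-like and epithelial-like cells and of Fabp4 between macrophage-like and epithelial-like cells (0.279) ended too, without Tumor 2 those of Lpl between fibroblast-like and macrophage-like cells (0.307) and of Fabp5 between endothelial-like and fibroblast-like cells (0.0661), and without either that of Apoe between fibroblast-like and macrophage-like cells (0.0934 and 0.0702), all from edgeR.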

How the results depend on the processing

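Of 1743 log2 fold changes of members recomputed under an alternative, 1518 kept their direction and their side of the threshold, 96 lost the call, 80 gained one and 49 changed sign, none of the last with a call either way. All 517 alternatives of called values kept their direction. Calls that held throughout were endothelial Plin2 (both Tumor comparisons) and Lpl over Prepuberty (-4.38 to -2.73), and Fabp4 in fibroblast-like and Fabp4 and Fabp5 in macrophage-like cells in both. Cd36 over DCIS ranged from -2.92 to -2.15 in endothelial-like, -5.86 to -4.18 in fibroblast-like, -3.65 to -2.98 in macrophage-like and -5.16 to -2.97 in epithelial-like cells. The alternatives without adipocyte marker cells or neutrophil cells were chosen after seeing the data. Where a cause is not given by the alternative itself, the cause was not tested.

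The number of members called changed as follows, with the share of all genes called in the same fit as a percentage. Without a filter on low counts it was 1 (2.52%) for endothelial DCIS over Prepuberty (0 with the filter), 8 (12.4%) for endothelial Tumor over Prepuberty (5), 2 (1.51%) and 5 (7.44%) for macrophage DCIS over Prepuberty and Tumor over DCIS (0 and 3), and 3 (3.26%), 4 (9.58%) and 6 (12.7%) for epithelial DCIS over Prepuberty, Tumor over DCIS and Tumor over Prepuberty (0, 1 and 3). With DESeq2 it was 8 (12.3%) for endothelial Tumor over Prepuberty, 1 (0.681%) for macrophage DCIS over Prepuberty, and 1 (2.24%), 3 (12.3%) and 5 (17.1%) for the epithelial comparisons. Without integration it was 2 (4.56%) and 3 (2.54%) for fibroblast Tumor over DCIS and over Prepuberty (5 each) and 3 (3.72%) for epithelial Tumor over DCIS. With only the 4 libraries compared it was 1 (1.31%) for macrophage DCIS over Prepuberty, 2 (4.52%) for macrophage Tumor over Prepuberty (4) and 0 (0.0675%) for epithelial Tumor over DCIS. A mitochondrial limit of 5% and thinned sums each gave 2 (7.62% and 8.66%) for macrophage Tumor over Prepuberty. In epithelial-like cells the largest cluster alone (0% and 0.196%) and the cells with a T antigen UMI (0.101% and 0%) each gave 0 in both Tumor comparisons.

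With 1 library left out, the endothelial count was 2 to 5 (3.73% to 10.6% of all genes) over DCIS and 3 to 5 (5.04% to 8.75%) over Prepuberty, the fibroblast count 1 to 6 (0.259% to 16.1%) and 2 to 3 (1.28% to 11.0%), the macrophage count 2 to 5 (0.511% to 11.3%) and 2 to 5 (2.59% to 9.31%), and the epithelial count 0 to 3 (0% to 7.88%) and 0 to 4 (0% to 11.0%), and for DCIS over Prepuberty it was 0 to 1 (0.0214% to 0.655%) in macrophage-like cells and 0 (0% to 0.106%) in the others. Fewest genes over DCIS passed without a DCIS library in 3 types: 425 and 536 in endothelial-like, 175 and 33 in fibroblast-like and 41 and 69 in macrophage-like cells without DCIS 1 and 2. The members whose change differed between types numbered 0 to 3 for endothelial-like with fibroblast-like (0.232% to 2.67% of all genes) or macrophage-like cells (0.0681% to 2.84%), 0 to 2 for endothelial-like with epithelial-like (0.245% to 3.91%), 1 to 3 for fibroblast-like with macrophage-like (0.116% to 6.63%), 0 to 4 for fibroblast-like with epithelial-like (1.35% to 10.8%) and 0 to 3 for macrophage-like with epithelial-like cells (0.0477% to 4.30%), the lowest counts without DCIS 1 or DCIS 2 (for fibroblast-like with macrophage-like cells also without Tumor 2). Of these fits, those without a gland library were chosen after seeing the data. Calls of members within a type that lapsed without 1 library are given with their values above, and lapsed differences between types with the differences. Over all genes, the 1449, 1766, 489 and 141 calls for Tumor over DCIS in endothelial-like, fibroblast-like, macrophage-like and epithelial-like cells went to 2274, 3243, 1146 and 2021 without a filter, 1518, 2721, 433 and 1637 with DESeq2, and 1558, 547, 546 and 497 without integration.

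Replicate numbers shared by the states did not mark a known pair: of 12 correlations of same-numbered libraries, from -0.0762 to 0.353, 6 were over 0.1, among them all 3 of fibroblast-like cells. With the replicate number as a block, 7 members were called for endothelial Tumor over Prepuberty (13.7% of all genes, 11.6% without the block), 6 in each fibroblast Tumor comparison (19.6% and 12.8%, 14.5% and 9.85% without it) and 0 for epithelial Tumor over DCIS (0%, 1.06% without it), and macrophage Pparg over Prepuberty was at -3.21 (edgeR adjusted p = 0.0600).

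Values that changed sign were not called. The ranges here are over leaving out 1 library, and the library named is the one without which the sign turned. For endothelial DCIS over Prepuberty, Plin2 was -0.29 to 0.40 (Prepuberty 1, DCIS 2) and Scd1 -2.28 to 0.41 (DCIS 1), and Scd1 was 1.12 without adipocyte marker cells and 1.71 in the largest cluster without them, where Apoe was 0.33. Over DCIS, endothelial Gpihbp1 was -0.065 to 1.80 (Tumor 1) and Fasn -0.12 to 0.94 (Tumor 2), and Fasn over Prepuberty was 1.14 without adipocyte marker cells and 0.97 in the largest cluster without them. For fibroblast DCIS over Prepuberty, without Prepuberty 1 the sign turned for Cd36 (-1.46 to 1.22), Lpl (-1.82 to 0.96) and Pparg (-1.20 to 0.30), and without DCIS 2 for Gpihbp1 (-1.97 to 0.56), Plin2 (-0.34 to 1.52) and Apoe (-0.89 to 0.0089). Fibroblast Gpihbp1 over DCIS was -6.84 to 0.39 (DCIS 1), and Fasn -0.12 to 0.086, -0.040 with the DESeq2 size factors, -0.039 with DESeq2, -0.046 without a filter and -0.038 with 4 libraries. In macrophage-like cells, Fabp4 for DCIS over Prepuberty was -0.13 to 0.86 (Prepuberty 2, DCIS 1) and Plin2 -0.084 to 0.028 (Prepuberty 1) and 0.014 without a filter, Lpl was -0.0022 to 2.71 over DCIS (Tumor 2) and -2.85 to 0.43 over Prepuberty (Prepuberty 2), and Pparg over DCIS -1.04 to 0.23 (DCIS 2). For epithelial DCIS over Prepuberty, Plin2 was -0.78 to 0.57 (Prepuberty 2, DCIS 1), 0.16 without integration and 0.33 by T antigen, Apoe -2.54 to 0.42 (Prepuberty 2), 0.64 and 0.48 likewise, Pparg -1.48 to 0.19 (Prepuberty 2, DCIS 1) and Fasn 0.10 in the largest cluster. Epithelial Plin2 was -0.69 to 0.10 over DCIS (DCIS 2) and 0.87 in the largest cluster, and over Prepuberty -1.13 to 0.23 (Prepuberty 2), 0.43 in the largest cluster and 0.19 by T antigen, and Fasn over Prepuberty -0.085 to 0.87 (Tumor 2).

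Depth limits low genes in the smallest sums, where 1 UMI was worth 3.63 CPM in the endothelial-like cells of Tumor 2. Of 48 shares of cells, 38 left their Wilson interval when cells were not thinned.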

Other observations

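Some members also stood apart between glands and Tumor in classes outside the comparisons, which are described here without a test. Myoepithelial-like cells, named for the contractile layer of the ducts, had 37 and 68 cells in Tumor 1 and 2. Of these Tumor cells, 43.2% and 54.4% held a UMI of the T antigen, against 0% to 0.535% of the cells of a gland library. All of them were placed in this class by integration. Without it, the cluster led by the same genes (Chil1 and Slpi first) held 0 cells of either Tumor library and 85 to 640 of a gland library. In the integrated class Fabp5 stood at 1373, 1501, 1662 and 1448 CPM in the glands and at 216 and 353 CPM in Tumor. Apoe stood at 3953, 2313, 1908 and 1959.8 CPM in the glands and at 405 and 16.2 CPM in Tumor. In these cells Fabp5 was thus far higher than in epithelial-like cells of the same glands (209.8 to 492 CPM), and in Tumor the levels of both classes were of the same order.

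Pericyte-like or smooth-muscle-like cells, with 23 and 5 cells in Tumor 1 and 2, held Lpl at 1882, 642, 503 and 913 CPM in the glands and at 61.5 and 90.5 CPM in Tumor. Fabp5 in the same cells was at 271, 236, 180.4 and 299 CPM in the glands and at 649.9 and 669.7 CPM in Tumor, higher in Tumor as in fibroblast-like cells. Differences in these classes were not tested.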
